A study of Mus musculus with 10 samples.

Results

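The receptors for glutamate and GABA were examined subunit by subunit in hippocampal RNA of mice of the genotype labelled TfamAKO and of wild-type (WT) mice. The subunit genes were chosen by symbol alone, from the row names of the deposited count table: Gria for AMPA receptors, Grik for kainate receptors, Grin for NMDA receptors, Grid for delta receptors, Grm for metabotropic glutamate receptors, Gabr for GABA-A receptors and Gabbr for GABA-B receptors. Such a symbol was found for 41 of the 20156 genes in the table, and 36 of them are described, 23 for glutamate and 13 for GABA. Counts, medians and sums over subunits are over the ones described. Gabra6 and Grm6, which the same symbol pattern would take, have no row in the count table. The bulk libraries came from 5 TfamAKO and 5 WT mice aged 6 months, 1 library per mouse. Tfam is the gene of mitochondrial transcription factor A, which binds and compacts the mitochondrial genome. The title of the series refers to mitochondria of astrocytes. The labels name neither the promoter that drives the deletion nor the cells it reaches, and give no sex, strain or treatment.

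Glutamate is the main excitatory transmitter of the hippocampus and GABA the main inhibitory one. AMPA, kainate and NMDA receptors are ion channels built from several subunits, and the subunits chosen set their speed, calcium entry and location. Metabotropic glutamate receptors and GABA-B receptors act through G proteins and often sit on presynaptic terminals, where they limit release. GABA-A receptors are chloride channels, usually made from alpha and beta subunits with a gamma or a delta subunit.

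Total counts ran from 19558377 to 28675367 in TfamAKO libraries and from 16584245 to 26032470 in WT libraries. Libraries of the same group correlated at 0.970 to 0.991 across genes on the log2 scale. Tfam itself ran from 19.6 to 23.6 CPM (counts scaled to a common library size by TMM) in TfamAKO and from 20.6 to 33.0 CPM in WT. Its log2 fold change was -0.40 ± 0.12 (SE), with an edgeR adjusted p of 0.0204. Some libraries stood apart within their group. WT 3, 4 and 5 had 2877 to 5794 summed CPM of 11 choroid plexus markers, against 43.1 to 137 in the TfamAKO libraries and 48.5 and 169 in WT 1 and 2. TfamAKO 4 and 5 had 22.7 and 22.4 CPM of the Y-linked gene Kdm5d, and every other library was below 1. For Xist, TfamAKO 4 and 5 had 0.14 and 0 CPM and the other libraries 201 to 467 CPM. By these transcripts TfamAKO 4 and 5 read as male and all other libraries as female, so sex was not balanced between the groups. The fits without TfamAKO 4 and 5 below compare libraries that read as female only. TfamAKO 5 had 320.1 summed CPM of 6 neocortex markers, against 107 to 127 in TfamAKO 1 to 4 and 146 to 169 in WT. Markers of dentate granule cells and of CA pyramidal neurons were present in every library.

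Many receptor subunits were lower in TfamAKO hippocampus and none was called higher, except on a scaling to pan-neuronal markers, where 6 were lower and 3 higher. Of the 34 subunits with enough counts to test, 15 (44.1%) were lower at an edgeR adjusted p under 0.05 and 19 were not called. Over all 16180 genes tested, 16.6% were called lower and 20.8% called higher, 37.4% together. Those shares stood for 2679 and 3369 genes, and scaling by library totals only gave 1975 lower and 3898 higher, with 15 subunits lower. The median log2 fold change of the 34 subunits was -0.38, beside -0.02 over all genes tested, and 31 of the 34 had a negative value. For 12 subunits all 5 TfamAKO libraries lay below all 5 WT libraries, as they did for 9.43% of all genes, and for 0 subunits they lay above. At an unadjusted p under 0.05, edgeR gave 19 lower and 0 higher, and both DESeq2 and limma-voom called 17 lower and 0 higher. Over all genes, DESeq2 also called more than edgeR in both directions, and limma-voom called more lower and fewer higher. Shares of all genes at the unadjusted p are not given here, so the 19 cannot be set against them. Many of the called changes were modest: 8 of the 15 had a fold change under 1.5, and only Grin2c, Gabrg1 and Gabra2 were at least 2-fold lower. In bulk RNA, fewer cells of a type and less RNA per cell cannot be told apart. Grin3b and Gabre had too few counts to test, so these counts describe 34 and not all 36 subunits.

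**Figure D1:**
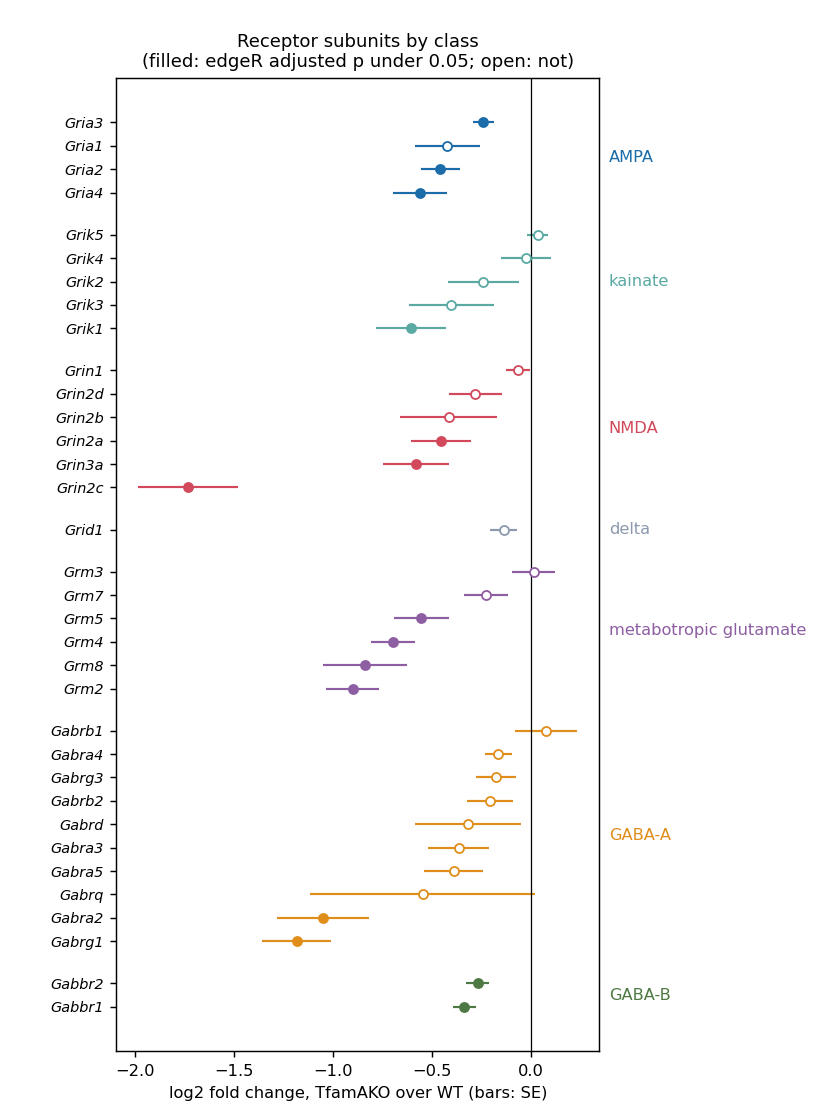
Log2 fold change of TfamAKO over WT (x axis) for the 34 tested subunits, grouped by receptor class, with bars for the SE. Filled points were called lower by edgeR (15 subunits) and open points were not called; Grin2c lies farthest left at -1.73.

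The classes differed in how many subunits were lower. Metabotropic glutamate receptors had 4 of 6 lower with a median log2 fold change of -0.62, and AMPA receptors 3 of 4 with -0.44. NMDA receptors had 3 of 6 lower with a median of -0.43, GABA-A receptors 2 of 10 with -0.34, and GABA-B receptors 2 of 2 with -0.30. Kainate receptors had 1 of 5 lower with a median of -0.24, and Grid1 of the delta receptors was not called at -0.14. Taken by transmitter, 11 of 22 glutamate receptor subunits and 4 of 12 GABA receptor subunits were lower, with medians of -0.42 and -0.33. Without WT 1 the kainate median was -0.098 and the NMDA median -0.29. Over all genes tested 16.6% were called lower, and the 20% of GABA-A and 20% of kainate subunits called lower were close to that share. These are counts over few genes, and no difference between classes was tested.

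Summed over a class, and so weighted by its abundant subunits, metabotropic glutamate receptors came to 279.9 ± 42.8 CPM in TfamAKO and 401 ± 9.65 CPM in WT (SD, n = 5 each), or 69.8% of the WT level. AMPA receptors stood at 74.7%, GABA-A receptors at 80.7%, GABA-B receptors at 80.5% and NMDA receptors at 81.9% of WT. Grid1 was at 91.0% and kainate receptors at 96.3%. All 36 subunits together were 4600 ± 484 CPM in TfamAKO and 5773 ± 363 CPM in WT (SD, n = 5 each), 79.7% of WT. The TfamAKO libraries ran from 4108 to 5371 CPM and the WT libraries from 5430 to 6385 CPM, without overlap, and TfamAKO 1 lay closest to WT.

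**Figure D2:**
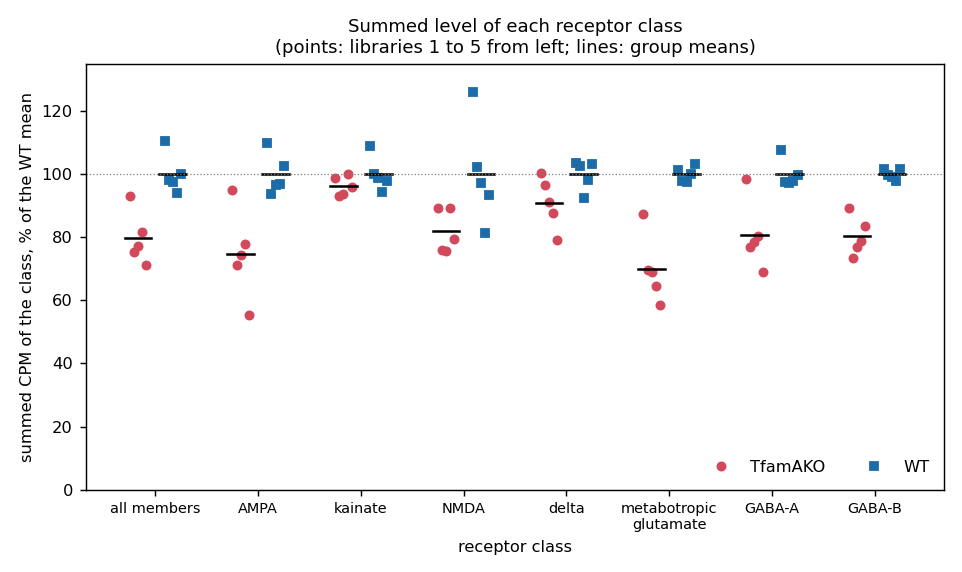
Summed CPM of each receptor class in every library, as a percentage of the WT mean (y axis), with lines for group means. TfamAKO means lie at 69.8% to 81.9% for 5 classes and at 91.0% and 96.3% for delta (Grid1) and kainate receptors; TfamAKO 1 is the highest TfamAKO library for the sum of all members.

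Levels of different genes were compared per kb of the longest protein-coding transcript. Gria1, which encodes the AMPA subunit GluA1, was at 128 CPM per kb in TfamAKO and 171 CPM per kb in WT. Grin1, the subunit that every NMDA receptor holds, was at 131 CPM per kb in TfamAKO and 137 CPM per kb in WT. Gabbr1, the GABA-binding subunit of the GABA-B receptor, was at 111 CPM per kb in TfamAKO and 140.3 CPM per kb in WT. By this length Gria1 was the highest of these in WT and Grin1 in TfamAKO. In TfamAKO Gria1 had the higher mean, 707 against 559 CPM for Grin1, and the shorter coding sequence, 2.721 against 2.877 kb. Per kb of coding sequence Gria1 was therefore above Grin1 in TfamAKO as well. The order depended on the length used: per kb of coding sequence, Gria2 stood second in WT at 264 CPM, after Gria1 at 348 CPM and before Gabbr1 at 256 CPM and Grin1 at 203 CPM. Grik5, a kainate subunit that joins others to form channels, was at 87.0 CPM per kb in TfamAKO and 85.0 CPM per kb in WT. The subunits with the largest fold changes were less abundant: Grin2c was at 4.72 CPM per kb in TfamAKO and 15.6 CPM per kb in WT, Gabra2 at 6.73 CPM per kb in TfamAKO and 13.9 CPM per kb in WT and Gabrg1 at 2.18 CPM per kb in TfamAKO and 4.93 CPM per kb in WT.

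Among AMPA receptor subunits, Gria2, Gria3 and Gria4 were lower and Gria1 was not called. Gria2 encodes GluA2, whose edited form keeps calcium out of the channel. Its levels were 614, 486, 505, 517 and 422 CPM in TfamAKO libraries 1 to 5, against 823, 627, 682, 671 and 690.0 CPM in WT libraries 1 to 5. The groups did not overlap, and the log2 fold change was -0.46 ± 0.10 (edgeR adjusted p = 0.00358). Gria3 encodes GluA3 and had 150.1, 142, 144, 152 and 154 CPM in TfamAKO libraries 1 to 5, against 192, 172, 171, 163 and 177 CPM in WT libraries 1 to 5. Here too every TfamAKO library was below every WT library, by a smaller log2 fold change of -0.24 ± 0.05 (edgeR adjusted p = 0.00511). Gria4 encodes GluA4, which in the adult hippocampus is known mainly from interneurons, and had 44.9, 38.2, 37.5, 28.4 and 47.8 CPM in TfamAKO libraries 1 to 5, against 68.2, 60.5, 45.8, 58.9 and 56.7 CPM in WT libraries 1 to 5. The groups overlapped through TfamAKO 5 and WT 3, and the log2 fold change was -0.56 ± 0.14 (edgeR adjusted p = 0.00738). Gria1 had 976, 669, 711, 764 and 415 CPM in TfamAKO libraries 1 to 5, against 979.9, 902, 917, 926 and 1006 CPM in WT libraries 1 to 5. TfamAKO 1 lay within the WT range and TfamAKO 5 far below the other libraries, and the log2 fold change of -0.42 ± 0.17 did not pass (edgeR adjusted p = 0.0647). Without TfamAKO 5 it was -0.28, and without TfamAKO 1 it was -0.56, and both of these passed. Gria1 was also called lower by DESeq2 (adjusted p = 0.03146) and limma-voom (adjusted p = 0.04678). The authors' normalized signal gave the same call with pseudocounts of 0.5, 1 and 5, so whether Gria1 passed depended on the method.

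Of the kainate receptor subunits, only Grik1 was called lower. Grik1 encodes GluK1, known from hippocampal interneurons, and had 9.19, 8.79, 8.89, 4.86 and 6.45 CPM in TfamAKO libraries 1 to 5, against 11.99, 11.5, 9.10, 11.9 and 13.2 CPM in WT libraries 1 to 5. The lowest WT library, WT 3, lay just under TfamAKO 1, and the log2 fold change was -0.60 ± 0.18 (edgeR adjusted p = 0.0185). Grik3, which encodes GluK3, had 33.9, 34.4, 36.4, 30.9 and 74.3 CPM in TfamAKO libraries 1 to 5, against 58.9, 58.0, 46.2, 54.8 and 59.8 CPM in WT libraries 1 to 5. TfamAKO 5 was the highest of all 10 libraries and the other 4 TfamAKO libraries were below every WT library. Its log2 fold change was -0.40 ± 0.21 with TfamAKO 5 (edgeR adjusted p = 0.158) and -0.71 without it (edgeR adjusted p = 0.000113). Grik2, the subunit GluK2 of mossy fibre and CA3 synapses, ran 24.9 to 49.1 CPM in TfamAKO and 41.7 to 67.1 CPM in WT and was not called at -0.24 ± 0.18. Grik4 and Grik5, which need another kainate subunit to form channels, had log2 fold changes of -0.03 ± 0.13 and 0.03 ± 0.05. Grik5 held most of the kainate class and averaged 328 ± 16.7 CPM in TfamAKO and 320.0 ± 12.3 CPM in WT (SD, n = 5 each). The delta receptor gene Grid1, whose product binds cerebellin proteins at synapses, had -0.14 ± 0.07 and was not called.

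NMDA receptors showed the widest spread of changes. Grin2c encodes GluN2C, a subunit that gives channels with weak magnesium block and that is enriched in astrocytes of the mouse forebrain. It had 43.4, 19.1, 15.1, 20.5 and 17.5 CPM in TfamAKO libraries 1 to 5, against 73.8, 95.4, 80.2, 68.2 and 65.0 CPM in WT libraries 1 to 5. Every TfamAKO library lay below every WT library, and TfamAKO 1 was higher than the other 4. The log2 fold change was -1.73 ± 0.25 (edgeR adjusted p = 0.000287), and -2.08 without TfamAKO 1. The 10 astrocyte markers were mixed beside it, with 4 higher, 3 lower and a median log2 fold change of -0.03. Their summed level was 4685 to 7230 CPM in TfamAKO and 4400 to 5439 CPM in WT. Of that sum, Gfap alone averaged 2093 CPM in TfamAKO and 447 CPM in WT, so the sum does not describe the other markers. The part of astrocytes in the Grin2c result was not tested.

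Grin3a encodes GluN3A, a glycine-binding subunit that lowers calcium entry, and had 28.5, 26.0, 25.1, 15.4 and 20.1 CPM in TfamAKO libraries 1 to 5, against 42.7, 29.6, 27.3, 33.9 and 38.4 CPM in WT libraries 1 to 5. TfamAKO 1 overlapped with WT 3, and the log2 fold change was -0.58 ± 0.17 (edgeR adjusted p = 0.0170). Grin2a encodes GluN2A, the main adult partner of Grin1, and had 203, 152, 148, 208 and 144 CPM in TfamAKO libraries 1 to 5, against 308, 237, 238, 175 and 214 CPM in WT libraries 1 to 5. WT 4 lay below 2 of the TfamAKO libraries. The log2 fold change of -0.45 ± 0.15 (edgeR adjusted p = 0.0324) did not pass in 6 of the 10 fits that left out 1 library each, where the edgeR adjusted p was 0.0565 to 0.0816. Grin2b, which encodes GluN2B, had 205, 154, 142, 207 and 145 CPM in TfamAKO libraries 1 to 5, against 402, 215, 196, 132 and 194 CPM in WT libraries 1 to 5. WT 1 stood far above all other libraries and WT 4 was the lowest of all 10, and its log2 fold change of -0.41 ± 0.24 was not called. Without WT 1 it was -0.11. The obligatory subunit Grin1 averaged 559 ± 27.8 CPM in TfamAKO and 584 ± 39.6 CPM in WT (SD, n = 5 each), a log2 fold change of -0.06 ± 0.06 (edgeR adjusted p = 0.431). Grin2d, a subunit known from interneurons, was at -0.28 ± 0.13 and was not called.

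Metabotropic glutamate receptors fall into 3 groups by sequence and coupling. Grm5 encodes mGlu5, a group I receptor that couples to phospholipase C and sits beside the postsynaptic density. It had 199, 152, 154, 155 and 99.8 CPM in TfamAKO libraries 1 to 5, against 236, 208, 210.4, 223 and 236 CPM in WT libraries 1 to 5. The groups did not overlap, TfamAKO 5 was the lowest, and the log2 fold change was -0.55 ± 0.14 (edgeR adjusted p = 0.00820).

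In group II, Grm2 fell and its close relative Grm3 was not called. Grm2 encodes mGlu2, a presynaptic receptor that limits glutamate release and is known from the mossy fibres of dentate granule cells. It had 49.7, 35.3, 32.8, 27.9 and 45.9 CPM in TfamAKO libraries 1 to 5, against 73.7, 69.9, 71.5, 69.8 and 72.4 CPM in WT libraries 1 to 5. The WT libraries lay within a narrow band and all TfamAKO libraries below it, with a log2 fold change of -0.90 ± 0.13 (edgeR adjusted p = 0.000345). Grm3 encodes mGlu3, which both astrocytes and neurons make, and had 37.5, 38.01, 32.6, 31.6 and 37.6 CPM in TfamAKO libraries 1 to 5, against 26.6, 41.2, 38.1, 36.1 and 33.4 CPM in WT libraries 1 to 5. The lowest library was WT 1, and the log2 fold change was 0.01 ± 0.11 (edgeR adjusted p = 0.933). Of 8 dentate granule cell markers, 4 were lower and 1 was higher, and their summed level was 207 to 343 CPM in TfamAKO and 349 to 434 CPM in WT. The part of granule cells in the Grm2 result was not tested.

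Group III holds presynaptic receptors that inhibit adenylyl cyclase. Grm4 had 11.9, 12.2, 11.9, 10.4 and 16.2 CPM in TfamAKO libraries 1 to 5, against 20.1, 20.97, 19.6, 19.4 and 21.4 CPM in WT libraries 1 to 5. TfamAKO 5 was the highest TfamAKO library and still below every WT library, and the log2 fold change was -0.70 ± 0.11 (edgeR adjusted p = 0.000549). Grm8 had 4.59, 4.39, 4.84, 2.499 and 6.73 CPM in TfamAKO libraries 1 to 5, against 7.44, 8.68, 6.97, 9.54 and 8.52 CPM in WT libraries 1 to 5. TfamAKO 4 was the lowest and TfamAKO 5 the closest to WT, again without overlap, with a log2 fold change of -0.84 ± 0.21 (edgeR adjusted p = 0.00958). Grm7, the most widely expressed receptor of the group, was not called at -0.22 ± 0.11 (edgeR adjusted p = 0.133).

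**Figure D3:**
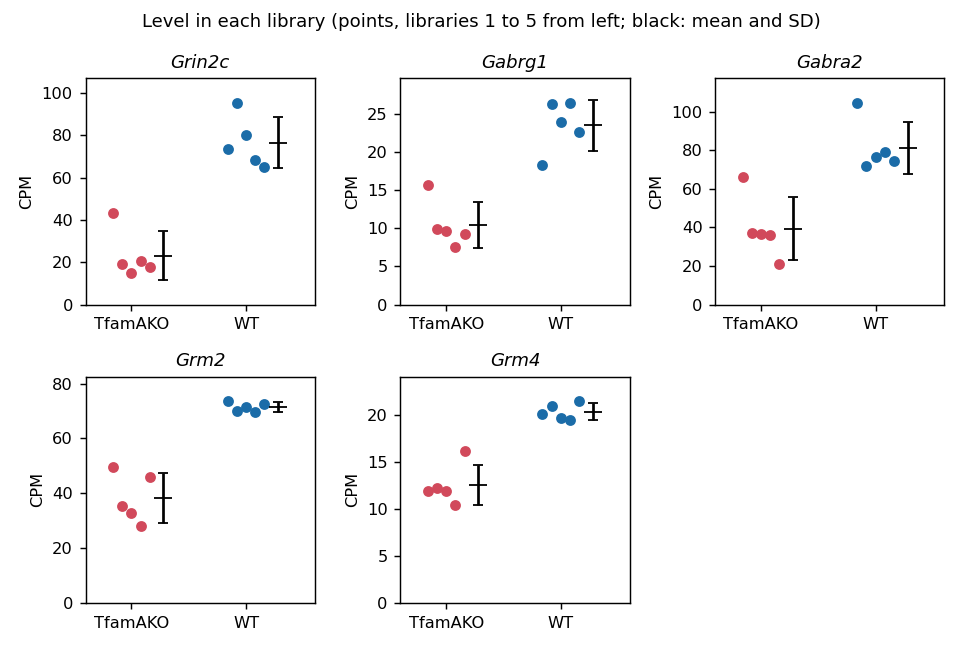
CPM (y axis, from 0) of the 5 subunits that were called lower under all 25 alternative analyses, with points for TfamAKO and WT libraries 1 to 5 and black marks for mean and SD. In each panel every TfamAKO library lies below every WT library; for Grin2c and Gabra2 the highest TfamAKO point is TfamAKO 1, at 43.4 and 66.0 CPM.

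Of the GABA-A receptor subunits described, Gabra2 and Gabrg1 were lower. Gabrg1 encodes the gamma-1 subunit, which is enriched in astrocytes of the mouse forebrain, and had 15.6, 9.93, 9.69, 7.60 and 9.20 CPM in TfamAKO libraries 1 to 5, against 18.3, 26.3, 23.9, 26.4 and 22.6 CPM in WT libraries 1 to 5. The groups did not overlap, TfamAKO 1 and WT 1 came closest to each other, and the log2 fold change was -1.18 ± 0.18 (edgeR adjusted p = 0.000343). Gabra2 encodes alpha-2, a subunit of synapses on the cell body and the axon initial segment of pyramidal cells. It had 66.0, 37.3, 36.6, 36.0 and 21.1 CPM in TfamAKO libraries 1 to 5, against 105, 72.1, 76.3, 79.1 and 74.2 CPM in WT libraries 1 to 5. TfamAKO 1 came closest to WT and TfamAKO 5 was the lowest, with a log2 fold change of -1.05 ± 0.23 (edgeR adjusted p = 0.00432).

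The other 8 described and tested GABA-A subunits were not called. Gabra5 encodes alpha-5, an extrasynaptic subunit for which the hippocampus is known. It had 143, 129, 138, 148 and 74.1 CPM in TfamAKO libraries 1 to 5, against 168, 174, 164, 160.3 and 161 CPM in WT libraries 1 to 5. The groups did not overlap and TfamAKO 5 was far below the other libraries, and the log2 fold change of -0.39 ± 0.15 missed the threshold (edgeR adjusted p = 0.0576). Without that library it was -0.24 and passed (edgeR adjusted p = 0.00458). With all libraries, DESeq2 (adjusted p = 0.03145) and limma-voom (adjusted p = 0.04833) called Gabra5 lower. Gabrd encodes delta, the subunit of tonic inhibition in dentate granule cells, and had 12.1, 12.4, 14.9, 18.7 and 37.6 CPM in TfamAKO libraries 1 to 5, against 21.3, 25.6, 23.1, 25.7 and 24.1 CPM in WT libraries 1 to 5. TfamAKO 5 was the highest of all 10 libraries and TfamAKO 1 to 4 were all below WT. The log2 fold change was -0.32 ± 0.27 (edgeR adjusted p = 0.372) and, without TfamAKO 5, -0.72 (edgeR adjusted p = 0.00143). The remaining 6, Gabra3, Gabra4, Gabrb1, Gabrb2, Gabrg3 and the scarce Gabrq, had log2 fold changes of -0.36, -0.16, 0.08, -0.21, -0.18 and -0.55. Gabra4, Gabra5 and Gabrb1 share exonic bases with a gene on the opposite strand that is also in the table, over 0.332% to 4.98% of their exonic bases in GENCODE M21. The kit marks strand, but no source used here says whether the counting used it, so these 3 levels are uncertain to that extent. The untested Grin3b shares 32.1% of its exonic bases with Tmem259 in the same way. Grin1, Grin2d and Grm2 share 13.5%, 9.66% and 9.6% with annotated opposite-strand genes that have no row in the count table. The levels of Grin1, Grin2d and Grm2 are uncertain likewise.

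Several GABA-A subunit genes lie side by side in the genome, and calls differed between neighbours. In the RefSeq annotation of chromosome 5, Gabrg1 and Gabra2 are adjacent and are followed, after 1 other coding gene, by Gabra4 and Gabrb1. The first pair fell by 1.18 and 1.05 on the log2 scale, while Gabra4 and Gabrb1 had values of -0.16 and 0.08 and were not called. Gabra4 and Gabrb1 lie on opposite strands, and 1 of the RefSeq starts of Gabrb1 lies inside Gabra4, 387 bases from the Gabra4 start. The differences between neighbours were not tested.

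The 250 bases upstream of the starts of these 4 chromosome 5 genes, and of Grin2c and Grm2, are shown because they lie before the RefSeq starts of the 4 called subunits with the largest fold changes and of the 2 neighbours that were not called. They come from RefSeq on GRCm38.p6, read 5′ to 3′ on the strand of the gene, and capitals mark a motif match. Bases just after each RefSeq start were looked for in the first part of the GENCODE M21 transcripts of the gene. For Gabrb1, which has more than 1 RefSeq start, the window for which they were found is shown. They were not found for Grm2 and were found for the other windows shown. Positions of the starts themselves were not compared.
Gabrg1 (chr5:70842618-70842867, minus strand): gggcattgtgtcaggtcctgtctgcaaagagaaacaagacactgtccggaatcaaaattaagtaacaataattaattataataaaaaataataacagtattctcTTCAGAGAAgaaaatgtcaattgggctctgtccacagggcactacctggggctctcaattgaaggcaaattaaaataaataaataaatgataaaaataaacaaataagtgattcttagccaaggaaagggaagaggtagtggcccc
Gabra2 (chr5:71095850-71096099, minus strand): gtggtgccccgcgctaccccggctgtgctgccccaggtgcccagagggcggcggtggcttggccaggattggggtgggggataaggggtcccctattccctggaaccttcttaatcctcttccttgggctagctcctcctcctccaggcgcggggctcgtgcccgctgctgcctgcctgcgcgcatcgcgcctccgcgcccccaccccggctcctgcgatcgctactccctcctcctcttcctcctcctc
Gabra4 (chr5:71658309-71658558, minus strand): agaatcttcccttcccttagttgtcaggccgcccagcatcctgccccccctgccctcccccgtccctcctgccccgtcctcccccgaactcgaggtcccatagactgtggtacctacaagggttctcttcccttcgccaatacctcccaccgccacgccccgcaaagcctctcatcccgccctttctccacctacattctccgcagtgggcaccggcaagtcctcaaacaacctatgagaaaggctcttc
Gabrb1 (chr5:71699682-71699931, plus strand): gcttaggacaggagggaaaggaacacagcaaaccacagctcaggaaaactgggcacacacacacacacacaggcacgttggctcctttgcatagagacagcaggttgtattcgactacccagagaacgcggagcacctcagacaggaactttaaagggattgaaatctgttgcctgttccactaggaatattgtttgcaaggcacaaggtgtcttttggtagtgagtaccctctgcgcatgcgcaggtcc
Grin2c (chr11:115267244-115267493, minus strand): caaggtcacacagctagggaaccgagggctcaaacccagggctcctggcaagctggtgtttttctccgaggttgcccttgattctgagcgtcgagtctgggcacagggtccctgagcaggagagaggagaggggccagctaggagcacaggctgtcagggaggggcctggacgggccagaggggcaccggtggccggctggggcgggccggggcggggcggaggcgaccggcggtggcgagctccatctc
Grm2 (chr9:106656110-106656359, minus strand): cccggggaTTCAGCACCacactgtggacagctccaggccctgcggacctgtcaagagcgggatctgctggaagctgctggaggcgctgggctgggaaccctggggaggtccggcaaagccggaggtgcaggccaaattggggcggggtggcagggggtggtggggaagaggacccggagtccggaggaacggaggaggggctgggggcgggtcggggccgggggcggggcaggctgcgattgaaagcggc

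The windows differed in base composition. Gabra2 had 70.0% G and C with 18 CpG pairs, Grm2 71.2% with 16, and Grin2c 68.8% with 15. Gabra4 had 61.2% with 12 and Gabrb1 50.8% with 6 in the window shown and 64.4% with 18 in its other window, and the median of all 32851 windows in the RefSeq table was 52.4% with 6. Gabrg1 had 35.6% with 1 CpG pair. Windows were available for 26 of the 36 subunits, 33 windows in all, and 5 motifs were searched on both strands. The cAMP response element TGACGTCA was in 0 of the 33 windows and in 1.55% of all windows. The STAT motif TTCNNNGAA was in 1 window, that of Gabrg1, with its first base 146 bases before the start, and in 7.02% of all windows. TTCAGCACC, the left part of the REST element, was in 1 window, that of Grm2, 242 bases before the start, and in 0.301% of all windows. The ATF4 and C/EBP composite TGATGNAA was in 2 windows, both of Grm7, and in 3.45% of all windows. Those 2 windows overlap and hold the same site. TATAAA was in 4 windows of 3 genes and in 12.4% of all windows, and 2 of the 4, both of Gabra3, overlap and hold the same site. A match describes these letters only, and binding was not measured.

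GABA-B receptors are pairs of Gabbr1, which binds GABA, and Gabbr2, which couples to the G protein, and both were lower. Gabbr1 had 657, 534, 559, 569 and 600.0 CPM in TfamAKO libraries 1 to 5, against 728, 737, 726, 730.5 and 760.0 CPM in WT libraries 1 to 5. Gabbr2 had 308, 259.7, 273, 281 and 304 CPM in TfamAKO libraries 1 to 5, against 369, 341, 343, 326 and 338 CPM in WT libraries 1 to 5. For both genes TfamAKO 1 was the highest TfamAKO library and still below every WT library. Their log2 fold changes were -0.34 ± 0.06 (edgeR adjusted p = 0.00121) and -0.27 ± 0.06 (edgeR adjusted p = 0.00461), and the ratio of Gabbr1 to Gabbr2 differed by -0.07 (exact permutation p adjusted over 9 ratios = 0.214).

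Ratios of subunits within a library do not depend on how libraries are scaled. Of the 5 ratios given, 1 differed between the groups in an exact two-sided permutation test over libraries, at the smallest p that 252 arrangements allow (0.00794, adjusted over the 9 ratios computed 0.0357). The log2 ratio of Grm3 to Grm2 was -0.41, 0.11, -0.01, 0.18 and -0.29 in TfamAKO libraries 1 to 5, against -1.47, -0.76, -0.91, -0.95 and -1.12 in WT libraries 1 to 5. The groups did not overlap, and the ratio was 0.96 higher in TfamAKO. On the authors' normalized signal with a pseudocount of 0.5, the ratio was 1.05 higher but did not pass (adjusted exact permutation p = 0.0714). Nor did it pass without WT 4 or without WT 5 (adjusted exact permutation p = 0.0714 for both). Leaving out a WT library cannot make the groups overlap, and the adjusted p also depends on the other ratios computed. Not passing there does not show a smaller difference in this ratio.

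The other 4 ratios did not pass. Grin3a to Grin1 differed by -0.53 (adjusted exact permutation p = 0.143). Gria1 to Gria2, the balance that bears on calcium entry through AMPA receptors, differed by -0.01 (adjusted exact permutation p = 0.944). Grin2a to Grin2b differed by -0.11 (adjusted exact permutation p = 0.679), with an SD of 0.03 among the TfamAKO libraries and 0.30 among the WT libraries.

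**Figure D4:**
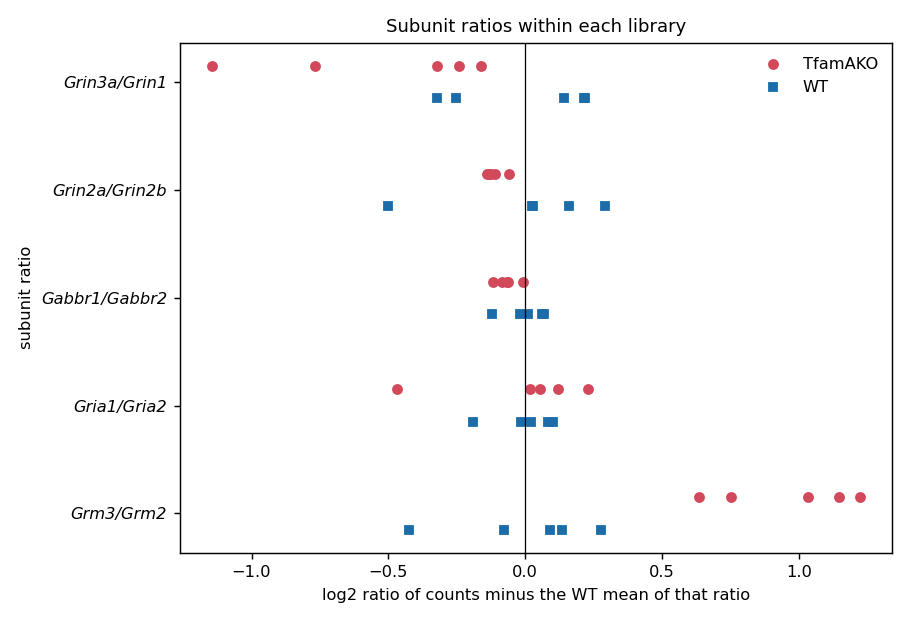
Log2 ratio of the counts of 2 subunits within each library, minus the WT mean of that ratio (x axis), for 5 ratios, with circles for TfamAKO and squares for WT. Grm3/Grm2 lies to the right in all 5 TfamAKO libraries, while the groups overlap for the other 4.

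The spread between mice was wider in TfamAKO than in WT, a difference that was not tested. The median coefficient of variation of the tested subunits was 19.9% in TfamAKO and 10.3% in WT, beside 13.5% in TfamAKO and 10.8% in WT over all genes. TfamAKO 1 had the highest TfamAKO level for 20 of the 34 subunits. TfamAKO 5 had the lowest for 12 and the highest for 8, and TfamAKO 4 the lowest for 11. Single libraries held the extremes in WT too: WT 1 had the highest WT level for 19 subunits, WT 4 the lowest for 13 and WT 3 the lowest for 10. In TfamAKO 5 the low subunits included Gria1, Grik2, Gabra2 and Gabra5 and the high ones Grik3 and Gabrd, beside the high neocortex markers of that library. The part of tissue composition in these values was not tested. Without TfamAKO 4 and 5, 16 subunits were called lower: Grik1, Grin2a and Grin3a were no longer called and Gabra3, Gabra5, Gabrd and Grik3 were. Calls over all genes in that fit are not given here, so the 16 cannot be set against them. Without WT 3, 4 and 5, which leaves 2 WT libraries, 10 were lower, among them Grin2c at -1.85, Gabra2 at -1.14 and Gabrg1 at -1.08. Gabbr1, Gabbr2, Grik1, Grin3a, Grm5 and Grm8 were then no longer called and Grin2b was, and over all genes 750 were called lower and 2002 higher.

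**Figure D5:**
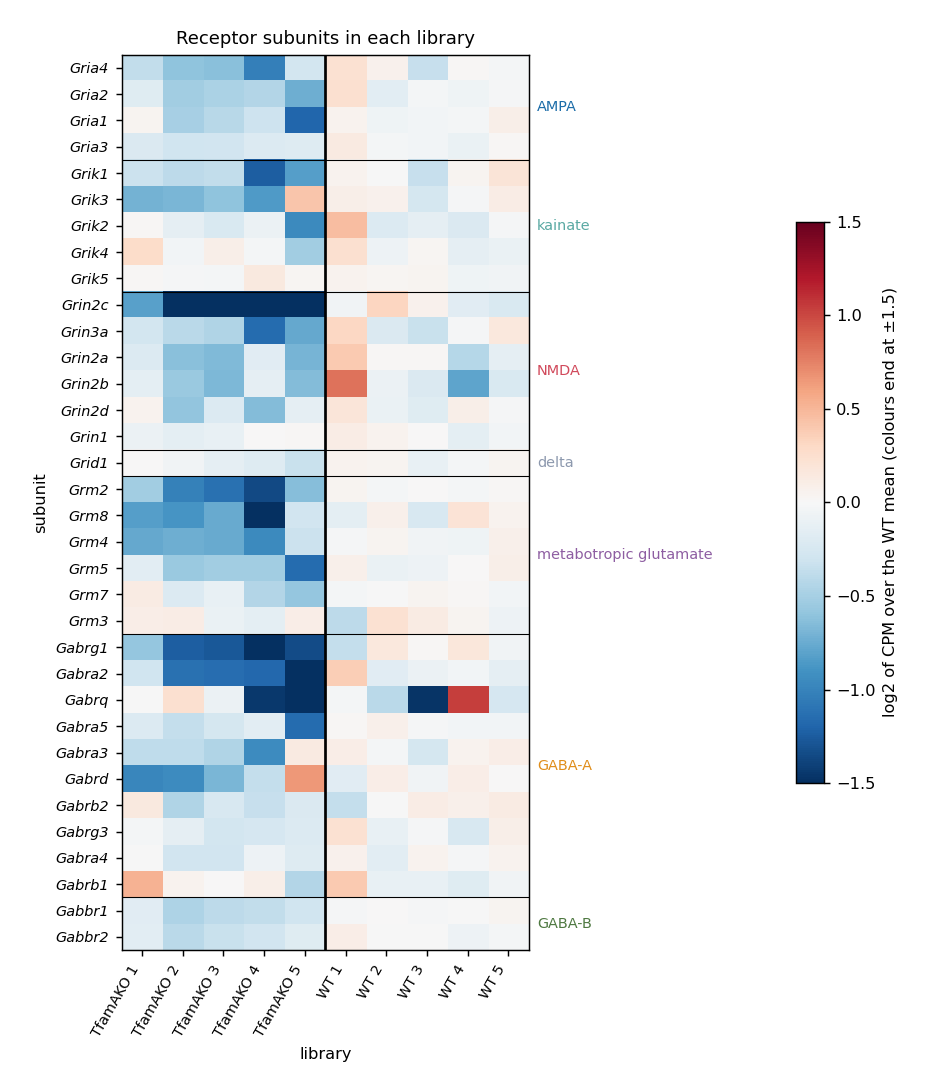
Log2 of the CPM over the WT mean for the 34 tested subunits (rows, by class) in each library (columns, TfamAKO left of the black line), with blue for lower and red for higher values and colours ending at 1.5 either way. Grin2c, Gabrg1 and Gabra2 are blue in all TfamAKO libraries, and TfamAKO 5 is red for Grik3 and Gabrd.

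General neuronal transcripts were lower as well, which sets a second yardstick for the receptors. Of 12 pan-neuronal markers, 8 were lower and 0 higher, with a median log2 fold change of -0.28 and a summed level of 7007 to 8308 CPM in TfamAKO and 8897 to 9817 CPM in WT. Interneuron markers had 7 of 11 lower (median -0.58) and CA pyramidal markers 0 of 10 (median -0.28), while 7 of 8 microglia markers and 5 of 6 endothelial and mural markers were higher. The part of cell composition in the subunit results was not tested. When libraries were scaled to the pan-neuronal markers, the median log2 fold change of all genes became 0.28, with 580 called lower and 7391 called higher. On that scale 6 subunits were lower: Grin2c at -1.47, Gabrg1 at -0.91, Gabra2 at -0.76, Grm2 at -0.62, Grm8 at -0.55 and Grm4 at -0.40. A further 3 were higher, Gabrb1 at 0.37, Grik5 at 0.34 and Grin1 at 0.24, beside the 0.28 of all genes. The median over the 34 subunits was then -0.08.

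Transcripts for proteins that deliver and hold glutamate receptors changed in both directions. Of 27 such genes, 11 were lower and 2 higher, with a median log2 fold change of -0.20. That was 40.7% lower and 7.41% higher, beside 16.6% and 20.8% of all genes tested, so the share higher was below that of all genes. Shisa8, an AMPA receptor auxiliary protein, rose by 1.24 ± 0.22 on the log2 scale (edgeR adjusted p = 0.00102). C1ql3, a secreted synaptic adhesion protein, was at -0.55 ± 0.11 (edgeR adjusted p = 0.00265). The AMPA receptor proteins Shisa9 and Cnih3 were at -0.58 ± 0.12 and -0.64 ± 0.13 (edgeR adjusted p = 0.00297 and 0.00327).

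Of 13 genes for GABA receptor partners, 4 were lower and 2 higher, with a median of -0.18. That was 30.8% lower and 15.4% higher, beside 16.6% and 20.8% of all genes tested, so here too the share higher was below that of all genes. The 2 that rose were Gabarap, a trafficking protein, at 0.29 ± 0.06 (edgeR adjusted p = 0.00252) and Nlgn2, the adhesion protein of inhibitory synapses, at 0.31 ± 0.07 (edgeR adjusted p = 0.00470). Shisa7 and Lhfpl4, auxiliary proteins of GABA-A receptors, were lower at -0.47 ± 0.10 and -0.21 ± 0.05 (edgeR adjusted p = 0.00321 and 0.00932).

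Genes that make, package and clear the transmitters had 10 of 15 lower and 1 higher, with a median log2 fold change of -0.55. That was 66.7% lower and 6.67% higher, beside 16.6% and 20.8% of all genes tested. The astrocytic GABA transporter Slc6a11 averaged 88.4 ± 11.8 CPM in TfamAKO and 133 ± 14.7 CPM in WT (SD, n = 5 each), a log2 fold change of -0.59 ± 0.10 (edgeR adjusted p = 0.000886). Glul, which turns glutamate into glutamine, was lower at -0.57 ± 0.10 (edgeR adjusted p = 0.00133). The astrocytic glutamate transporters moved in opposite directions, Slc1a2 at -0.66 ± 0.13 (edgeR adjusted p = 0.00257) and Slc1a3 at 0.55 ± 0.11 (edgeR adjusted p = 0.00222). Slc17a7, the vesicular glutamate transporter of pyramidal cells, was at -0.10 and was not called. The scarcer vesicular glutamate transporters Slc17a6 and Slc17a8 were lower at -1.38 ± 0.33 and -0.93 ± 0.28 (edgeR adjusted p = 0.00668 and 0.0200). Their WT means were 26.2 and 5.17 CPM, beside 1592 CPM for Slc17a7.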

How the data were processed

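Hippocampal bulk RNA from 5 TfamAKO and 5 WT mice was sequenced as stranded mRNA libraries, per the labels' protocols. The authors deposited estimated counts per gene, all whole numbers, and a table of normalized signal values. Salmon and DESeq2 1.26.0 are named in the submitters' processing notes. How the normalized values were made and the genome build were not given in the sources. Groups followed the genotype label. The expected counts deposited by the authors were tested with edgeR 4.0.16 under R 4.3.3: filterByExpr with a minimum count of 10 kept 16180 genes and removed 3976, libraries were scaled by TMM, and genotype was tested over all genes with the two-sided quasi-likelihood test and Benjamini-Hochberg adjustment at 0.05. Log2 fold changes give TfamAKO over WT, and their SE was obtained by dividing their size by the root of the F statistic. Ratios used counts plus 0.5 and an exact permutation test over libraries, adjusted over the 9 ratios computed, of which 5 are given. Lengths and exon overlaps are from GENCODE M21, and promoter windows from RefSeq on GRCm38.p6.

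The alternatives were other scalings (DESeq2 size factors, upper quartile, totals only, pan-neuronal markers), filters and tests (DESeq2 1.42.0, limma-voom with limma 3.58.1, a robust edgeR fit), the deposited normalized signal on the log2(value + pseudocount) scale with pseudocounts of 0.5, 1 and 5, the replicate number as a block, and libraries left out. The edgeR script was tested on simulated data. Some genes whose symbols match the pattern are not reported here. Members and gene lists were chosen with earlier results of these data known. Per-library values were given for the called subunits of each class, up to 3 with the largest change, and for the other called ones. They were also given for uncalled subunits in which 1 library stood apart, chosen after their values were seen. Auxiliary and transmitter genes are the 4 with the smallest p in each list, and Slc17a6, Slc17a7 and Slc17a8 were added. Nothing in the labels says how the mice were bred or batched. The p-values set the group difference against the spread between these libraries and cannot tell genotype from breeding or batch.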

Additional observations from a re-analysis of the deposited data

Results flagged for a closer look

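In 7 of 78 sets of 5 libraries of the same group, the highest or lowest library stood far from the nearest of the others; chance alone flags about 1 in 20 such sets. In TfamAKO 5, Gabra5 was low at 74.13 CPM (other TfamAKO libraries 129 to 148), and Gabrd and Grik3 were high at 37.59 CPM (others 12.1 to 18.7) and 74.3 CPM (others 30.9 to 36.4). That library also had the highest summed neocortex markers, and their part in these values was not tested. In TfamAKO 1, Grin2c was high at 43.39 CPM (others 15.1 to 20.5). In WT 1, Gabra2 was high at 104.7 CPM (others 72.1 to 79.1), Gabrb1 at 163 CPM (others 109 to 120) and Grik2 at 67.13 CPM (others 41.7 to 47.8).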

How the results depend on the processing

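Of the 15 lower calls, 14 passed with each library left out in turn (the exception being Grin2a), 15 under 12 others (3 scalings, the filters, tests and value tables, and the block), 6 when scaled to pan-neuronal markers, 12 without TfamAKO 4 and 5, 9 without WT 3, 4 and 5, and 5 under all 25 alternatives. Leaving out 1 library gave 14 to 22 lower subunits, with 22 without TfamAKO 1 (Gabra4, Gabra5, Gabrb2, Gria1, Grid1, Grin2d and Grm7 were then called). Over all genes, the fits leaving out 1 library called 1989 to 3294 lower and 2839 to 3800 higher. Scaling by totals only gave 2 lower GABA receptor partners, and leaving out 1 library gave 2 to 5 lower partners and 1 to 4 higher glutamate receptor auxiliary genes. Library totals also set Grik4 to 0.021 and the upper quartile set Grm3 to -0.017. The GABA-A median was -0.43 on the authors' normalized signal with a pseudocount of 1 or 0.5.

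Scaling to pan-neuronal markers, which moved all genes upward, gave 6 lower and 3 higher subunits, 2 lower and 6 higher glutamate receptor auxiliary genes, 0 lower and 4 higher GABA receptor partners, and 5 lower and 3 higher transmitter genes. The class medians became -0.079 for all members, -0.14 for AMPA, 0.069 for kainate, -0.12 for NMDA, 0.16 for delta (Grid1), -0.33 for metabotropic glutamate, -0.051 for GABA-A and -0.0081 for GABA-B receptors. Signs turned for Gabbr2 (0.027), Gabra4 (0.13), Gabrb2 (0.073), Gabrg3 (0.12), Gria3 (0.061), Grid1 (0.16), Grik2 (0.069), Grik4 (0.27), Grin1 (0.24), Grin2d (0.0040) and Grm7 (0.066).

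Without TfamAKO 4 and 5 there were 2 lower GABA receptor partners, medians of -0.33 for AMPA and -0.23 for GABA-A receptors, and turned signs for Gabrq (0.043), Grik4 (0.11), Grik5 (-0.0057) and Gria1 to Gria2 (0.10). Without WT 3, 4 and 5 there were 10 lower subunits, 3 lower and 1 higher glutamate receptor auxiliary genes, 1 lower and 1 higher GABA receptor partner, 3 lower transmitter genes and medians of -0.64 for NMDA and -0.26 for GABA-A receptors, and signs turned for Gabrb1 (-0.058), Grin2a to Grin2b (0.12) and Gria1 to Gria2 (0.045). Over fits leaving out 1 library, Gabrb1 ran between -0.061 and 0.19, Grm3 between -0.070 and 0.091 and Grik4 between -0.11 and 0.078.

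The ratio Grm3 to Grm2 was 1.05 on the authors' normalized signal with a pseudocount of 0.5, 0.94 without TfamAKO 4 and 5 and 1.03 without WT 3, 4 and 5. None of these passed by the adjusted exact permutation p. The smallest unadjusted exact p is 0.0179 with 3 against 5 libraries and 0.0476 with 5 against 2. Adjustment over the 9 ratios can raise these, so not passing in those 2 fits does not show a smaller difference. Leaving out 1 library gave 0.85 to 1.04 for Grm3 to Grm2, not passing without WT 4 or WT 5, although the groups still did not overlap. Other ratios ran from -0.069 to 0.10 for Gria1 to Gria2 and -0.24 to -0.041 for Grin2a to Grin2b (passing without WT 1).

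The replicate numbers did not pair the libraries: same-numbered libraries correlated at -0.142 to 0.0691 in their deviations from the group means, and 0 of 5 correlated best with their own number. With the number as a replicate block, 17 subunits were lower, the 15 and also Gabra3 and Gabra5. Grm3 to Grm2 was 0.96 in the block, where the smallest exact p for 5 pairs is 0.0625. Where no reason is given here, the cause was not tested.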
